A study of Mus musculus with 2 samples.

Results

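The EphB receptors and ephrin-B ligands are the 8 mouse genes Ephb1, Ephb2, Ephb3, Ephb4, Ephb6, Efnb1, Efnb2 and Efnb3. They were found among 43346 genes by their Ensembl identifier, and 8 of 8 had a row. Their levels are described in midbrain taken from B6NCrl mouse embryos at 13.5 days of development. Total RNA over a stated minimum size was made into 2 libraries, numbered as biological replicates 1 and 2 of 1 group, each from 10 ng of RNA of pooled male and female tissue with spike-in RNA added. The series has no second tissue, age or treatment, so the comparisons are between genes within a library and between the replicates. Replicate 1 held 31436613 and replicate 2 held 40215359 estimated reads on genes. Levels are given in TPM, a length-normalized unit that divides the reads of a gene by its length and scales each library to one total. Because of that division, TPM can be compared between genes.

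Eph receptors are the largest family of receptor tyrosine kinases, and their ligands, the ephrins, are held on the membrane of neighbouring cells. Receptors of the B class bind mainly the transmembrane ephrin-B ligands, and binding sends a forward signal through the receptor's kinase and a reverse signal through the ligand's cytoplasmic tail. In the developing midbrain and its dorsal part, the tectum, these signals are known for the mapping of retinal axons, the guidance of crossing axons and the separation of cell groups, and in vessels for the separation of arteries from veins.

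The features by which the receptors differ as signalling molecules can be read in their coding sequence. The 8 codons of the kinase's catalytic loop are shown for the leading transcript of each receptor, 5′ to 3′ on the coding strand, on GRCm38 (the assembly also named mm10) with GENCODE M21 transcripts. Capitals mark the codon of the catalytic aspartate in Ephb1 and the codon aligned with it in the others.
Ephb1 (chr9:101964031-101964054, minus strand): caccggGACctggctgctagaaac
Ephb2 (chr4:136659662-136659685, minus strand): caccgtGACcttgctgctcgaaac
Ephb3 (chr16:21221378-21221401, plus strand): caccgtGACcttgctgcccgaaac
Ephb4 (chr5:137369806-137369829, plus strand): caccgaGACctggctgctcggaac
Ephb6 (chr6:41618664-41618687, plus strand): caccgaGCActctcggcccgaagt

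Ephb2, Ephb3 and Ephb4 encode the same 8 residues there as Ephb1, with different codons. Ephb6, which encodes a receptor known to lack kinase activity, shares 5 of the 8 and has no aspartate codon at the marked place. Over the whole protein, translated from the leading transcript, Ephb1 and Ephb2 had the highest identity of the 10 receptor pairs, with 73.5% of aligned residues identical, and Ephb4 and Ephb6 the lowest, with 46.3%.

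The ligands are shown by their last 36 coding bases, which encode the end of the cytoplasmic tail and the stop codon. Capitals mark the last 4 sense codons, which encode the site that binds PDZ domain proteins.
Efnb1 (chrX:99147492-99147527, plus strand): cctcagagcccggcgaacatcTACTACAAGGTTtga
Efnb2 (chr8:8620588-8620623, minus strand): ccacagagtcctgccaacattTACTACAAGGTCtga
Efnb3 (chr11:69555860-69555895, minus strand): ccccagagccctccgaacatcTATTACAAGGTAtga

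All 3 ligands encode the same last 4 residues, and 30 of their last 33 residues are identical in all 3. Over the whole protein Efnb1 and Efnb2 were identical at 57.0% of aligned residues, Efnb1 and Efnb3 at 44.5%, and Efnb2 and Efnb3 at 44.1%.

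All 8 members were detected, meaning that each library gave 1 TPM or more, against 34.3% of all 43346 genes and 60.2% of the 21474 protein-coding ones. Their mean levels ran between 6.45 and 89.8 TPM, beside a median of 16.4 TPM over all detected genes. Values below are TPM in replicate 1 and then in replicate 2, followed by mean ± SD with n = 2. The SD covers the spread between these 2 libraries. Spike-ins held 5.36% of TPM in replicate 1 and 9.39% in replicate 2. All genes together held 946373 TPM in replicate 1 and 906069 TPM in replicate 2. This lowers the TPM of genes in replicate 2 against replicate 1, for members and for the lists below.

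Ephb1, which encodes a receptor known for sending ventrotemporal retinal axons to the same side of the brain at the optic chiasm, led the receptors. It had 51.2 TPM in replicate 1 and 51.3 TPM in replicate 2 (51.3 ± 0.0778). The values of the 2 libraries were nearly equal on this scale, which counts spike-ins in, and 77.2% of detected genes were lower. Ephb6, the receptor without kinase activity, had 25.5 TPM in replicate 1 and 20.8 TPM in replicate 2 (23.2 ± 3.31). It was the only member with a higher TPM in replicate 1 than in replicate 2. Ephb2, whose protein acts in axon guidance, in retinal mapping and at excitatory synapses, had 16.6 TPM in replicate 1 and 19.5 TPM in replicate 2 (18.0 ± 2.08). Ephb3, which acts together with Ephb2 in the formation of the corpus callosum, had 11.97 TPM in replicate 1 and 15.2 TPM in replicate 2 (13.6 ± 2.28). Ephb4, the receptor of venous endothelium, had 6.13 TPM in replicate 1 and 6.77 TPM in replicate 2 (6.45 ± 0.453). It was the lowest member in each library, and 29.3% of detected genes were lower.

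Efnb3, the ligand known as a midline barrier to axons of the corticospinal tract, was the highest of all members. It had 77.8 TPM in replicate 1 and 102 TPM in replicate 2 (89.8 ± 16.9), and 87.3% of detected genes were lower. Efnb1, an X-linked ligand whose loss in mice and humans disturbs craniofacial development, had 19.9 TPM in replicate 1 and 28.5 TPM in replicate 2 (24.2 ± 6.08). Efnb2, the ligand of arterial endothelium that is also made by neural cells, had 10.1 TPM in replicate 1 and 12.1 TPM in replicate 2 (11.1 ± 1.37). All 3 ligands were higher in replicate 2, and the ligands kept the order Efnb3, Efnb1, Efnb2 in both libraries.

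**Figure D1:**
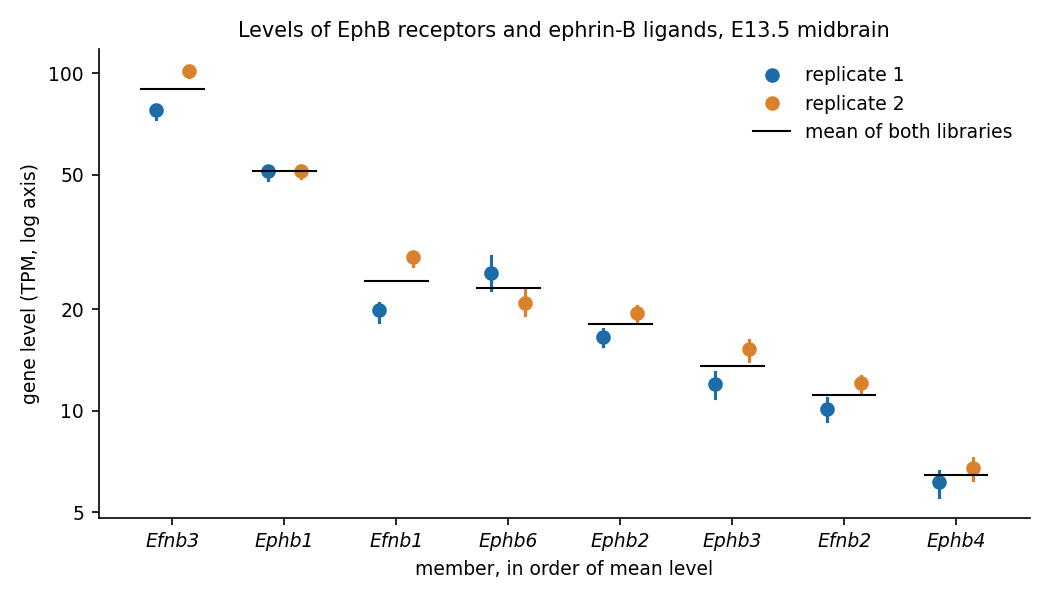
Level of each member in each library on a log axis of TPM, with the authors' deposited interval as a vertical line (its confidence level is not given) and the mean of both libraries as a horizontal bar. Efnb3 and Ephb1 stand above the rest at means of 89.8 and 51.3 TPM, and Ephb4 lies lowest at 6.45 TPM.

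The authors' interval of Ephb4 ran between 5.56 and 6.64 TPM in replicate 1 and between 6.23 and 7.23 TPM in replicate 2, so the intervals of the 2 libraries overlapped. For Efnb1 they ran between 18.3 and 20.8 TPM in replicate 1 and between 26.8 and 29.4 TPM in replicate 2, which did not overlap. These intervals describe the estimate within 1 library and not the spread between embryos.

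The order of the levels was then examined within libraries, where a ratio of 2 genes does not depend on the scaling of the library. The higher gene of each pair was set by the mean TPM of these same 2 libraries. A mean ratio above 0 is therefore nearly given in advance. Each ratio was taken on the log2(TPM + 0.1) scale, with a 95% interval from a limma fit that shares the spread across 14878 detected genes. Of the 28 pairs of members, 25 had an interval above 0, and 27 had the same direction in both libraries. The intervals were not adjusted for the number of pairs or for this choice of direction.

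Efnb3 stood above Ephb1 by 0.60 in replicate 1 and 0.99 in replicate 2, a mean log2 ratio of 0.79 with an interval between 0.47 and 1.12, or 1.73-fold. Ephb1 stood above Efnb1 by 1.36 in replicate 1 and 0.84 in replicate 2, a mean of 1.10 with an interval between 0.67 and 1.53, or 2.14-fold. With the authors' posterior mean TPM these ratios were 0.79 and 1.09, but both intervals then held 0.

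Efnb1, Ephb6 and Ephb2 were not fully separated. The log2 ratio of Efnb1 over Ephb6 was -0.35 in replicate 1 and 0.45 in replicate 2, so the direction turned between the libraries. The interval ran between -0.60 and 0.69. With leading transcripts only, Efnb1 stood above Ephb6 in both libraries. The levels were then 19.4 against 17.9 TPM in replicate 1 and 27.6 against 18.6 TPM in replicate 2. The mean log2 ratio was 0.34 on that measure, and its interval still held 0. Ephb6 over Ephb2 gave 0.62 in replicate 1 and 0.09 in replicate 2, and its interval, between -0.10 and 0.82, also held 0. Efnb1 stood above Ephb2 in both libraries, with an interval of the mean ratio above 0.

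Ephb2 stood above Ephb3 by 0.46 in replicate 1 and 0.36 in replicate 2, with a mean of 0.41 and an interval between 0.13 and 0.69. That step was 0.09, with an interval that held 0, when only protein-coding transcripts were summed. Ephb3 over Efnb2 gave 0.24 in replicate 1 and 0.33 in replicate 2, and its interval ran between -0.02 and 0.59. Efnb2 stood above Ephb4 by 0.72 in replicate 1 and 0.83 in replicate 2, a mean of 0.77 with an interval between 0.42 and 1.13.

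**Figure D2:**
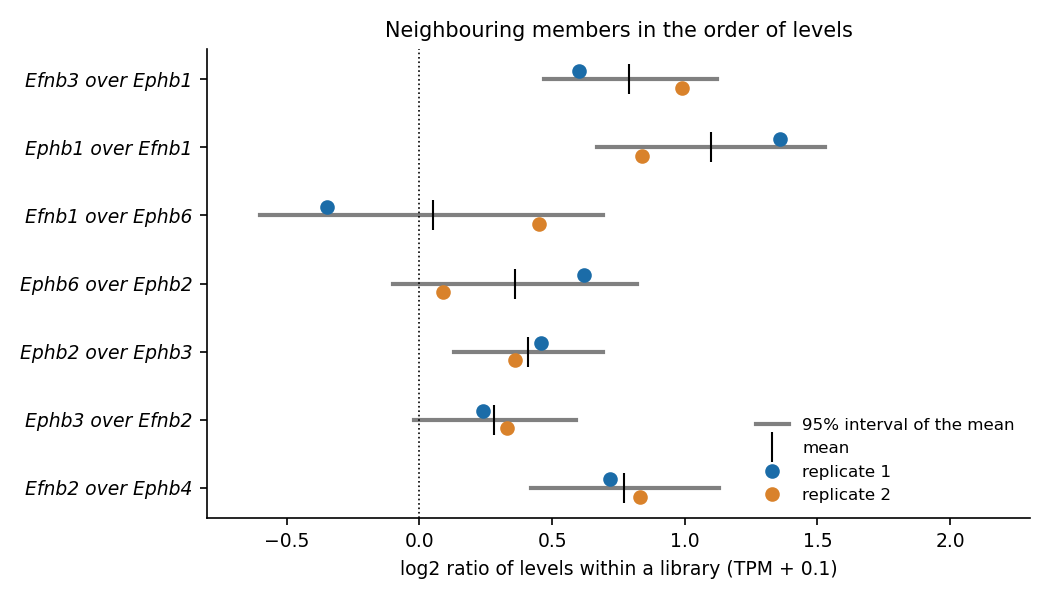
Log2 ratio of levels within each library for the 7 pairs of members that are neighbours in the order of means; points are the libraries, the upright mark is their mean and the grey line its 95% interval. The interval lies above 0 for 4 of the 7 pairs, and the points of Efnb1 over Ephb6 lie on both sides of 0.

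Among the ligands the steps were wide. Efnb3 was 3.72-fold above Efnb1, with a log2 ratio of 1.96 in replicate 1 and 1.83 in replicate 2, and 7.98-fold above Efnb2. Among the receptors Ephb1 was 2.22-fold above Ephb6, 2.84-fold above Ephb2, 3.78-fold above Ephb3 and 7.85-fold above Ephb4. Efnb3 made up 72.1% of the summed ligand TPM in replicate 1 and 71.5% in replicate 2. Ephb1 made up 46.0% of the summed receptor TPM in replicate 1 and 45.2% in replicate 2. The share of Efnb3 moved little between libraries although its own level did.

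The 8 genes have 27 transcripts in the tables, and the same transcript led in both libraries for 8 of 8 genes. In 4 genes, Ephb3, Efnb1, Efnb2 and Efnb3, the leading transcript took at least 90% of the gene's abundance in both libraries. Efnb3 has a single transcript, Efnb3-201. Efnb2-201 took 100% in replicate 1 and 98.5% in replicate 2, and Efnb1-201 took 97.3% in replicate 1 and 96.7% in replicate 2. Ephb3-201 took 94.7% in replicate 1 and 92.9% in replicate 2. By abundance, the leading transcript took less in the other 4 genes, all receptors. By expected reads, Ephb2-202 averaged 92.9% and Ephb6-201 97.3% of their gene, above the same line.

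Ephb1-201, of 984 codons, took 78.9% in replicate 1 and 75.6% in replicate 2. Ephb1-202, of 943 codons, took 14.7% in replicate 1 and 17.5% in replicate 2. The difference between the 2 transcripts' proteins is a 123-base exon of 41 codons that Ephb1-202 lacks. The exon is shown because it holds both tyrosine codons, in capitals, of the juxtamembrane pair whose phosphorylation is known to switch on Eph kinases and to bind SH2 adaptors.
Ephb1 exon absent from Ephb1-202 (chr9:101984082-101984204, minus strand): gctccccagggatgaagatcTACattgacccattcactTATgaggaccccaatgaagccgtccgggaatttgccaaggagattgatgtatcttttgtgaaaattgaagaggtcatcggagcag

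Another transcript, Ephb1-203, took 6.40% in replicate 1 and 6.93% in replicate 2. Its reading frame has 456 codons, of which the first 432 match Ephb1-201 and the last 24 differ, and it ends before the kinase domain.

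Ephb2-202, which encodes the full receptor in 986 codons, took 75.8% in replicate 1 and 70.1% in replicate 2. It is 10902 bases long, of which the last exon holds 7892. Ephb2-201 and Ephb2-203, which have shorter last exons of 1823 and 785 bases and 3 more coding bases each, were listed at 0 in both libraries. Ephb2-204, annotated as a retained intron and not as coding, took 21.3% in replicate 1 and 26.8% in replicate 2. By expected reads instead of length-normalized abundance, Ephb2-204 averaged 6.89% of the gene, since it is 2519 bases long. Transcripts of protein-coding type held 77.2% of Ephb2 abundance in replicate 1 and 73.2% in replicate 2, the lowest coding share of the 8 members.

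Ephb4-201 took 68.3% in replicate 1 and 69.3% in replicate 2, and Ephb4-203 took 20.0% in replicate 1 and 18.2% in replicate 2. Ephb4-203 has 996 codons against 987 in Ephb4-201. The 27 bases it adds keep the reading frame and are shown whole, in lower case, as the only coding difference between the 2 transcripts.
Ephb4-203 added bases (chr5:137362363-137362389, plus strand): ggcgcattgggtttctttctcctgcag

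Ephb6-201, of 1014 codons, took 70.1% in replicate 1 and 89.4% in replicate 2. Ephb6-203, a transcript of 459 bases, took 28.4% in replicate 1 and 10.6% in replicate 2. Few reads stood behind Ephb6-203, with 52.3 expected reads in replicate 1 and 21.3 in replicate 2, a mean of 2.48% of the gene by reads. The level of Ephb6-201 alone was 17.9 TPM in replicate 1 and 18.6 TPM in replicate 2, so the higher gene TPM of Ephb6 in replicate 1 came from the short transcript.

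**Figure D3:**
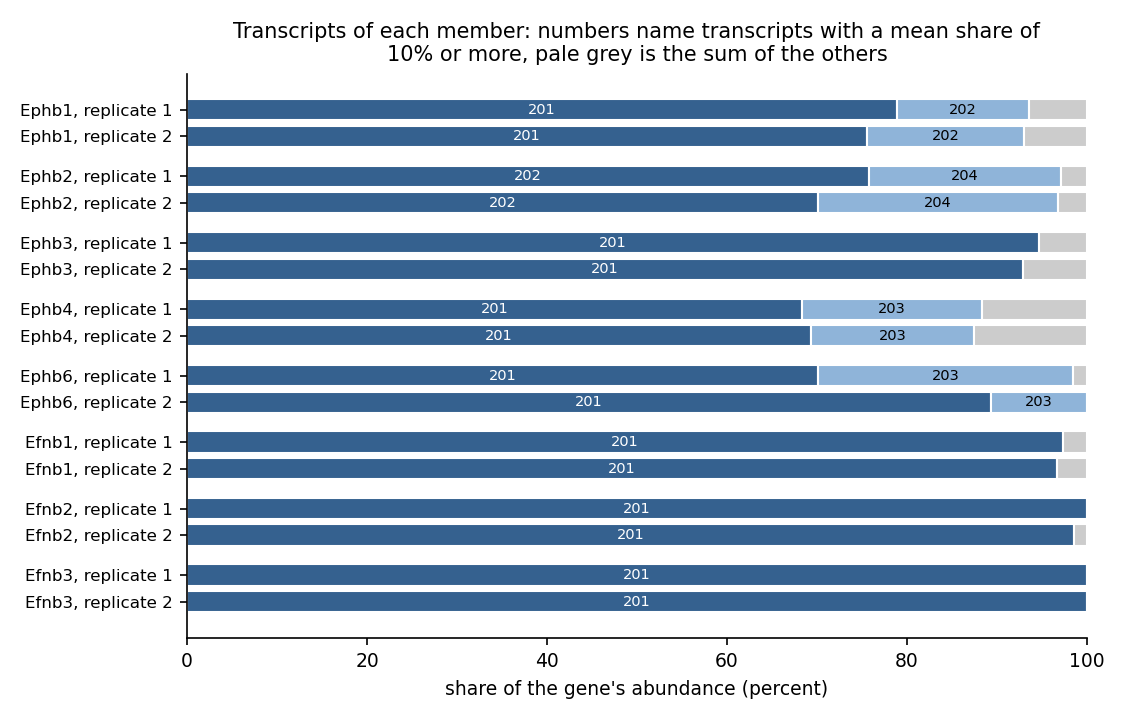
Share of each member's abundance in percent by transcript, one bar per library; the numbers inside the bars name transcripts with a mean share of 10% or more and pale grey is the sum of the others. Ephb6-203 takes 28.4% in replicate 1 and 10.6% in replicate 2, and Efnb3 has a single transcript in both.

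Summed over its 5 members the EphB class stood at 111 TPM in replicate 1 and 114 TPM in replicate 2 (113 ± 1.58). The 3 ephrin-B ligands summed to 108 TPM in replicate 1 and 142 TPM in replicate 2 (125 ± 24.4). By gene TPM the ratio of receptors to ligands was 1.03 in replicate 1 and 0.798 in replicate 2. On that measure neither class was higher in both libraries. With protein-coding transcripts only, the mean ratio was 0.875 in place of 0.915, and with leading transcripts only it was 0.721. Under both of these settings the ligands summed higher in each library, by a small margin in replicate 1 with coding transcripts.

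The A class, whose ligands are anchored to the membrane by a lipid, was measured beside it. EphA receptors summed to 159 TPM in replicate 1 and 173 TPM in replicate 2, and 8 of 9 were detected. Epha7 had 50.1 TPM in replicate 1 and 53.9 TPM in replicate 2, close to Ephb1. Epha5 had 32.8 TPM in replicate 1 and 42.7 TPM in replicate 2, and Epha4, which also binds ephrin-B ligands, had 29.6 TPM in replicate 1 and 29.0 TPM in replicate 2. Epha1 was the lowest, with 0.13 TPM in replicate 1 and 0.08 TPM in replicate 2, under the detection level. The EphB sum was 0.702 of the EphA sum in replicate 1 and 0.655 of it in replicate 2.

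All 5 ephrin-A ligands were detected. Efna5, a ligand of graded expression along the tectum that repels temporal retinal axons and that can also bind Ephb2, had 73.1 TPM in replicate 1 and 63.6 TPM in replicate 2. Efna2 had 28.2 TPM in replicate 1 and 32.3 TPM in replicate 2, Efna3 had 16.5 TPM in each library, and Efna4, the lowest by mean, had 7.17 TPM in replicate 1 and 8.93 TPM in replicate 2, close to Efna1 with 8.02 TPM in replicate 1 and 8.34 TPM in replicate 2. The ephrin-B sum was 0.811 of the ephrin-A sum in replicate 1 and 1.10 times it in replicate 2.

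**Figure D4:**
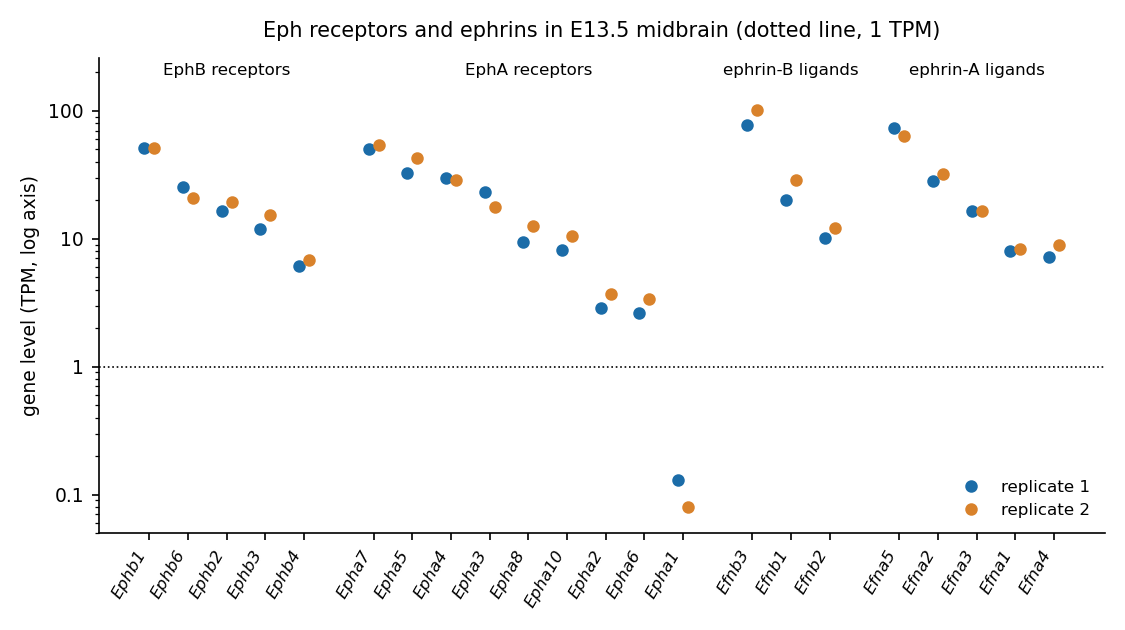
Level in TPM, on a log axis, of every Eph receptor and ephrin measured, in both libraries, grouped by class and ordered by mean level. Efnb3 is the highest of the 22 genes in each library, and Epha1 is the only one under 1 TPM.

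Genes that act with the members were counted from 3 further lists. Of 22 genes of forward signalling, 22 were detected, with a median level of 35.9 TPM. The SH2 adaptor Grb2 led with 131 TPM in replicate 1 and 133 TPM in replicate 2, followed by Afdn, a PDZ protein that binds the end of EphB receptors, with 129.2 TPM in replicate 1 and 128 TPM in replicate 2. The adaptor Grb10 had 107 TPM in replicate 1 and 116 TPM in replicate 2, and the kinase Abl2 was the lowest with 5.46 TPM in replicate 1 and 5.45 TPM in replicate 2. By expected reads Afdn stood below Grb10, with 4068 against 9859 in replicate 1 and 5274 against 14186 in replicate 2. The transcripts behind the TPM of Afdn were not examined.

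Of 14 genes of reverse signalling, 14 were detected, with a median of 25.2 TPM. Sdcbp, which encodes syntenin, a PDZ protein that binds the ligand tail printed above, had 245 TPM in replicate 1 and 223 TPM in replicate 2. The kinase Pak1 had 115 TPM in replicate 1 and 103 TPM in replicate 2, and the PDZ protein Pick1 had 67.6 TPM in replicate 1 and 68.4 TPM in replicate 2. Grip2, another PDZ protein, was the lowest with 3.45 TPM in replicate 1 and 3.58 TPM in replicate 2. All 10 genes of receptor and ligand cleavage were detected. They were led by the gamma-secretase subunits Psenen, with 110.2 TPM in replicate 1 and 106 TPM in replicate 2, and Ncstn, with 103 TPM in replicate 1 and 101 TPM in replicate 2. Rhbdl2, whose protease is known to cleave ephrin-B3, was the lowest with 1.21 TPM in replicate 1 and 1.10 TPM in replicate 2. With Eph and ephrin genes of the A class included, 59 of 60 such genes were detected.

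The members were also compared between the libraries, by expected reads scaled with TMM, which sets the typical gene equal in both. This ratio sets 1 library against 1 and so has no test, and its exact 95% interval covers counting error only. No member differed 1.5-fold or more, a size reached by 3.31% of the 14366 genes with a mean of at least 50 reads, of which 2.06% were lower and 1.25% higher in replicate 1. The 2-fold size was reached by 0.724% of genes and by no member. All 8 members were below 1 in the ratio of replicate 1 over replicate 2, as were 50.9% of all genes tested, except that with spike-in scaling, which moved the median log2 ratio of all genes to 0.88, the log2 ratios of all 8 lay above 0 and below that median. The median log2 ratio was -0.24 over the 8 members and 0.00 over all genes tested. It was -0.22 over 8 EphA receptors, of which 7 were lower in replicate 1, and -0.11 over 5 ephrin-A ligands, of which 4 were lower.

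Efnb1 lay nearest to the 1.5-fold size. It had 1236 reads in replicate 1 and 2348 reads in replicate 2, a log2 ratio of -0.56 with a counting interval between -0.66 and -0.46, or 1.47-fold lower in replicate 1. A lower ratio was held by 2.42% of genes. Efnb3 had 4809 reads in replicate 1 and 8388 reads in replicate 2, a log2 ratio of -0.43 with an interval between -0.48 and -0.38. Efnb2 had 859 reads in replicate 1 and 1347 reads in replicate 2, a log2 ratio of -0.28 with an interval between -0.40 and -0.15. Counting intervals left out 0 for 6 of 8 members, all 3 ligands among them, and for 39.3% of all genes tested. The width of such an interval depends on the read count, and the genes tested were not matched to the members in reads. The 2 shares therefore do not show whether the members differ from other genes in this.

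Of the receptors, Ephb3 had the lowest ratio, with 952 reads in replicate 1 and 1563 reads in replicate 2 and a log2 ratio of -0.35. Ephb2 had 2896 reads in replicate 1 and 4297 reads in replicate 2, a log2 ratio of -0.20. Ephb4 had 512 reads in replicate 1 and 754 reads in replicate 2, a log2 ratio of -0.19 whose interval ended at -0.02. For Ephb1, with 4525 reads in replicate 1 and 6019 reads in replicate 2, the log2 ratio of -0.04 had an interval that held 0. The same was true of Ephb6, with 1370 reads in replicate 1 and 1845 reads in replicate 2 and a log2 ratio of -0.06. By TPM the ratio of Ephb6 was 0.29, the other way round, since the short transcript lowered the gene's length to 2778 bases in replicate 1, against 3412 bases in replicate 2.

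**Figure D5:**
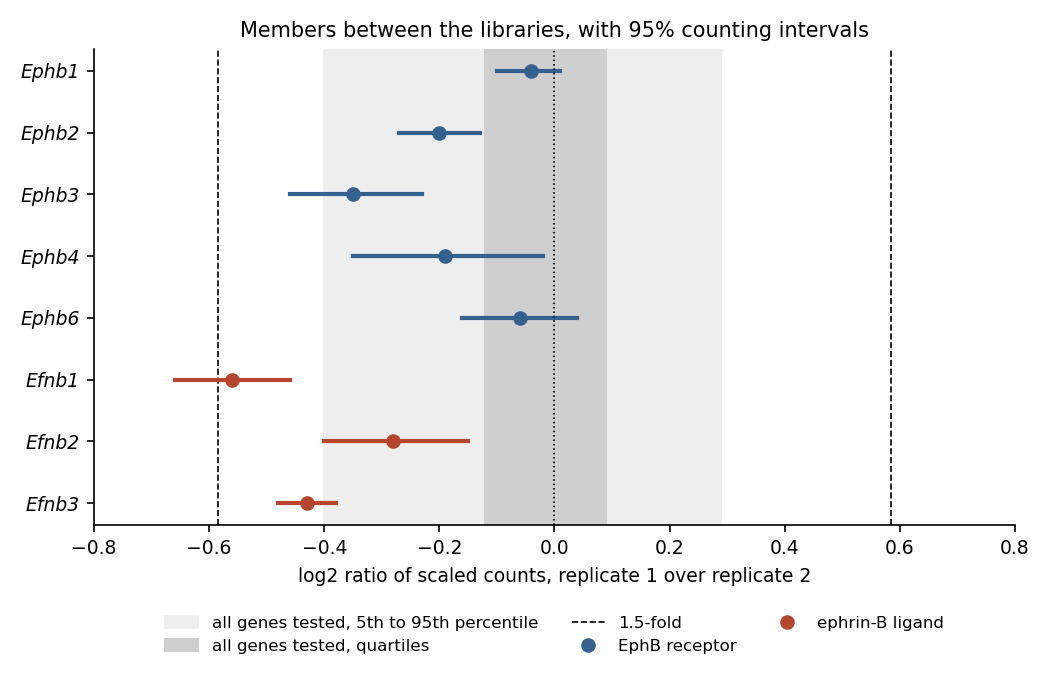
Log2 ratio of scaled reads, replicate 1 over replicate 2, for the 5 receptors and 3 ligands, with exact 95% counting intervals. Shaded bands give the quartiles and the 5th to 95th percentiles of all genes tested and dashed lines the 1.5-fold size. All 8 points lie left of 0 under this TMM scaling, and those of Efnb1 and Efnb3 lie beyond the 5th percentile of -0.40.

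Other measures of the genes and libraries are given beside these ratios. Whether any of them caused the ratios was not tested. Leading transcripts of the members had a GC content between 50.4% and 59.4%, against a median of 50.3% over genes tested, and a smooth curve of the ratio against GC content ran between -0.01 for Efnb2 and -0.11 for Ephb6. With that curve subtracted, Efnb1 stood at -0.47, Efnb3 at -0.35 and Ephb6 at 0.05, and 7 of 8 members stayed below 0. With length added to the curve, 6 of 8 did, and Ephb1 stood at 0.01. Efnb1 is on the X chromosome, whose 507 genes tested had a median log2 ratio of 0.06 against -0.01 for the others. Xist, the RNA of the inactive X, had 15.1 TPM in replicate 1 and 28.4 TPM in replicate 2, and the Y-linked Ddx3y had 19.1 TPM in replicate 1 and 9.40 TPM in replicate 2, in tissue labelled as pooled of both sexes.

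The tissue label was checked by markers. The 8 midbrain identity genes were all detected. They were led by Otx2 with 104 TPM in replicate 1 and 117 TPM in replicate 2. Meis2 followed with 57.0 TPM in replicate 1 and 61.9 TPM in replicate 2. The list summed to 209.7 TPM in replicate 1 and 234 TPM in replicate 2, and its lowest gene had a mean of 1.66 TPM. Its median log2 ratio was -0.18, with 7 of 8 lower in replicate 1 and none past 1.5-fold. Neuronal markers summed to 3968 TPM in replicate 1 and 3634 TPM in replicate 2, led by Tubb3 and Gap43. By scaled reads their median log2 ratio was 0.06, with 2 of 8 lower in replicate 1. Progenitor markers summed to 2194 TPM in replicate 1 and 2100.1 TPM in replicate 2, led by Fabp7 and Vim. Their median log2 ratio by scaled reads was -0.04, with 5 of 8 lower in replicate 1, the other way from the sums. The sums are of TPM with spike-ins counted in. Cortical markers, which belong to another brain region, summed to 40.8 TPM in replicate 1 and 56.3 TPM in replicate 2, led by Neurod6 and Emx2. By the 1 TPM rule 4 of the 6 were detected. Of the 6, 3 were at least 1.5-fold lower in replicate 1, and neither Neurod6 nor Emx2 was among these 3. Dopaminergic markers, of which 4 of 5 were detected, summed to 67.9 TPM in replicate 1 and 132 TPM in replicate 2, led by Nr4a2 and Th. At least 1.5-fold lower in replicate 1 were 4 of the 5. Markers of diencephalon and pretectum, led by Tcf7l2 and Lhx9, summed to 958 TPM in replicate 1 and 713 TPM in replicate 2, and 1 of 5, Gbx2, was past 1.5-fold and higher in replicate 1, with 59.7 TPM in replicate 1 and 26.3 TPM in replicate 2. The part of these differences in the members' ratios was not tested.

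Vessel and connective tissue cells also express members, in vessels Ephb4 and Efnb2 among them. In bulk tissue fewer cells of a type and less RNA per cell cannot be told apart. All 14 endothelial markers were detected, with a sum of 217 TPM in replicate 1 and 232 TPM in replicate 2, led by Cldn5 and Egfl7, and their median log2 ratio was -0.14, with 13 of 14 lower in replicate 1. The arterial list, led by mean by Gja4 and Sox17, summed to 28.3 TPM in replicate 1 and 30.6 TPM in replicate 2. Of its 6 genes 5 were detected. Among those with a mean of at least 50 reads, Sox17 alone was past 1.5-fold, at 1.51-fold lower in replicate 1. The list's log2 ratios ran between -0.60 and 1.02 with a median of -0.16, and 4 of 6 were lower in replicate 1. The gene at 1.02 had a mean of 31 reads. The venous list, led by Nr2f2 and Aplnr, summed to 117 TPM in replicate 1 and 125 TPM in replicate 2. Its log2 ratios ran between -0.58 and 0.09 with a median of -0.15, and 4 of 5 were lower in replicate 1. Nr2f2 is also made by neural cells. Meningeal and mesenchymal markers, led by Col3a1 and Col1a2, summed to 280.0 TPM in replicate 1 and 343 TPM in replicate 2, and 8 of 8 were lower in replicate 1, with a median log2 ratio of -0.32. Pericyte and smooth muscle markers, led by mean by Pdgfrb and Acta2, had a median log2 ratio of -0.06, and microglial markers, led by Pf4 and C1qa, one of -0.10. No marker of these lists was listed at 0 in either library. By the 1 TPM rule 4 of 5 venous, 7 of 8 meningeal and mesenchymal, 8 of 9 pericyte and smooth muscle and 6 of 6 microglial markers were detected. The part of such cells in the members' levels was not tested.

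Genes that overlap a member on the genome were counted, since the sources used here do not say whether counting used strand. Ephb1 overlaps 9 annotated genes, 6 of them on the other strand. Of these Gm26846, a non-coding RNA, had the most reads, with 259 in replicate 1 and 384 in replicate 2, against 4525 and 6019 for Ephb1. Ephb4 overlaps Zan on the other strand, which had 19 reads in replicate 1 and 18 reads in replicate 2. Efnb2 overlaps 3 unclassified genes that were not analysed here, and 5 members overlap no annotated gene.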

How the data were processed

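Gene and transcript tables, a pair per library, were deposited by the authors; assembly mm10 and annotation GENCODE M4 are named in a text file beside them. Deposited expected counts are reads shared out by estimation between genes or transcripts. Deposited TPM values add up to one total in both libraries with spike-in and tRNA entries counted in. FPKM as deposited is a multiple of TPM within a library. The deposited percent of a transcript is its share of the gene's TPM. The authors' bounds of the TPM come without a stated level. The headers carry RSEM's column names, while aligner, versions and filters were not given in the sources used here.

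Symbols, types, positions and sequences came from GENCODE M21 on GRCm38, matched without identifier versions. Of 43346 genes 42462 matched, and 26 of the 27 member transcripts had the same length there. The exception is Efnb2-201. Gene positions are chr9:101922128-102354693 for Ephb1, chr4:136647539-136835988 for Ephb2, chr16:21204755-21223305 for Ephb3, chr5:137350109-137378669 for Ephb4, chr6:41605482-41620509 for Ephb6, chrX:99136130-99148991 for Efnb1, chr8:8617434-8661242 for Efnb2 and chr11:69554092-69560205 for Efnb3.

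Replicate ratios used expected counts rounded to whole numbers, plus 0.5, scaled by TMM in edgeR 4.0.16. Exact Clopper-Pearson 95% intervals cover counting error alone, with each read taken as independent. Reads lacking molecular identifiers may be copies of one molecule, so the intervals may be too narrow. Spike-ins took 2.22% of reads in replicate 1 and 4.06% in replicate 2 and were left out of scaling. Within-library ratios used limma 3.58.1 in R 4.3.3, each detected gene being set against the next in rank of mean TPM to estimate the spread with a trend on level. On the log2(TPM + 0.1) scale, differences of low genes are understated. Intervals cover the spread between these 2 libraries only, and the sources used here do not say whether the libraries came from separate litters. Alternatives are named in the closing section.

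Named genes are all members, the 3 highest, the lowest and any under 1 TPM of each pathway list, the 2 highest of each marker list, pathway genes past 1.5-fold (none) and member transcripts of 10% or more. One gene this rule takes is not reported here. Ephb1-203, Efna1, Gbx2 and the sex-linked genes were named after their values were seen. With 1 group, no gene was named for likeness of pattern. Members and lists were chosen with earlier results of these data known.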

Additional observations from a re-analysis of the deposited data

How the results depend on the processing

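The 7 neighbouring directions held with posterior mean TPM, coding transcripts, leading transcripts and other pseudocounts. TPM over genes only, FPKM and other ranges of genes cannot turn a direction by their construction. With 1 library left out between 6 and 7 held. The number of neighbouring intervals above 0 was 4 in the report and between 3 and 6 under all 9 of these alternatives. With 1 library there is no interval. With posterior mean TPM, where the fit spans 18218 genes, the intervals of Efnb3 over Ephb1 and of Ephb1 over Efnb1 held 0, and that of Ephb3 over Efnb2 did not. The step of Ephb2 over Ephb3 fell to 0.09 with coding transcripts and to 0.05 with leading transcripts, and its interval then held 0. Ephb6 over Ephb2 reached 0.76 with coding transcripts and 0.47 with leading transcripts, with intervals above 0. Coding transcripts leave out Ephb2-204, and leading transcripts leave out Ephb6-203 as well. Leading transcripts and GC trends were chosen after seeing the data. The ratio of receptors to ligands ran between 0.798 and 1.03 with 1 library left out. It was 0.875 with coding transcripts and 0.721 with leading transcripts.

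No member passed 1.5-fold with the size factors of DESeq2 1.42.0, with totals of all genes, by TPM + 0.1, with coding reads, with GC trends removed or with other count minimums. Scaling to spike-in totals moved the median of all genes to 0.88. On that scale 5 members and 91.5% of all genes tested passed 1.5-fold, and 0 members and 0.703% of genes were lower in replicate 1, while relative to that shift the ratios are those of TMM by construction. Of 60 pathway genes 53 were detected at 5 TPM and 58 at 1 FPKM, against 59 in the report. By expected reads the same transcripts led in 8 of 8 members. No paired analysis was possible because the series has 1 group. Depth limits the short transcripts, of which Ephb6-203 had 52.3 reads in replicate 1 and 21.3 reads in replicate 2.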
